A study of Mus musculus with 12 samples.

Results

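The comparison described here is Q92 against wild-type striatum at 18 months, taken gene by gene and mouse by mouse. It rests on 6 of the 12 arrays of the series, chosen by genotype and age in the sample titles. The Q92 group held 3 mice of the C57BL/6 strain that carry HdhQ92/Q92, a knock-in that puts 92 CAG repeats from exon 1 of the human HD gene into the mouse's own Htt gene (older symbol Hdh). They were mouse Q92_18m_11, a male of 596 days, and the females Q92_18m_25 (567 days) and Q92_18m_66 (574 days). The 3 wild-type C57BL/6 mice were wt_18m_9, a female of 604 days, wt_18m_12, a male of 596 days, and wt_18m_17, a female of 596 days. The other 6 arrays came from 3 Q92 and 3 wild-type mice of 100 to 103 days (3 months) and serve here only as the young counterpart. Total RNA of each striatum was labelled with biotin and read on 1 Affymetrix Mouse Genome 430 2.0 array per mouse. Each animal has its own number in the labels, so the replicates were separate mice. Values are log2 signals of a probe set, a group of probes against 1 transcript. Differences are Q92 minus wild type on that scale, so that 1 is a doubling. Genes that fell or rose are those lower or higher in Q92 than in wild-type mice at 18 months, whatever their change with age.

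The striatum is the input nucleus of the basal ganglia. Most of its neurons are GABAergic projection neurons, which form an indirect pathway, marked by enkephalin, and a direct pathway, marked by dynorphin and substance P. Expanded CAG repeats in the huntingtin gene cause Huntington's disease, in which these neurons are lost early and their signalling genes are known to decline. The repeat knocked in here stands in the mouse gene and under its own promoter, so the mutant protein is made in every cell that makes huntingtin, not in neurons alone. In tissue RNA, fewer cells of a type and less RNA per cell cannot be told apart.

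All 45037 probe sets other than the array's own controls were tested with limma, and 18193 genes were represented by their brightest probe set. Correlations between arrays lay between 0.983 and 0.995. Striatal identity was checked with Ppp1r1b, which encodes DARPP-32 and read 11.14, 10.89 and 11.04 in the wild-type mice and 10.23, 10.49 and 9.49 in the Q92 mice. An 18S ribosomal RNA control probe set at the 5-prime end read 5.64, 5.75 and 5.73 in the wild-type and 7.52, 6.21 and 8.31 in the Q92 mice, so it was higher in all 3 Q92 mice. At 3 months the same control ranged from 5.28 to 8.70 in wild-type and from 6.66 to 11.18 in Q92 mice. The log2 ratio of 3-prime to 5-prime signal of Actb ranged from 0.70 to 0.99 in wild-type and from 0.80 to 0.91 in Q92 mice at 18 months. None of the 4 Htt probe sets passed. Their differences at 18 months ran from -0.26 to 0.11.

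At 18 months an adjusted p under 0.05 was reached by 24 of 45037 probe sets (0.0533% of those tested). Of these, 17 were lower (0.0377%) and 7 higher (0.0155%) in Q92 mice. They named 19 genes, 14 lower and 5 higher. The lower genes span neuropeptide and cyclic nucleotide signalling, calcium release and glutamate receptor accessory proteins. They also include a replication checkpoint adaptor, secreted ligand regulators, an mTOR inhibitor and a transcription cofactor. In each of the 24 probe sets every Q92 mouse lay on one side of every wild-type mouse. Over all probe sets, the groups failed to overlap in 6.76% with Q92 lower and in 7.02% with Q92 higher, and an unadjusted p under 0.05 was reached by 4.24% with Q92 lower and by 3.66% with Q92 higher. Among the 18193 genes at their brightest probe set, 14 passed (0.077%), 11 lower (0.0605%) and 3 higher (0.0165%). Groups of 3 and 3 mice cannot give an exact permutation p below 0.1, so the calls rest on the spread shared across the 4 groups of the series. The count was 9 without mouse wt_18m_9, 8 with the 18S control as a covariate and 4 with a block for each age in days. Of those 4, 1 was among the 24, that of Speer4cos, so every other call, including those of Penk, Clspn and Ddit4l, was lost under that block.

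**Figure D1:**
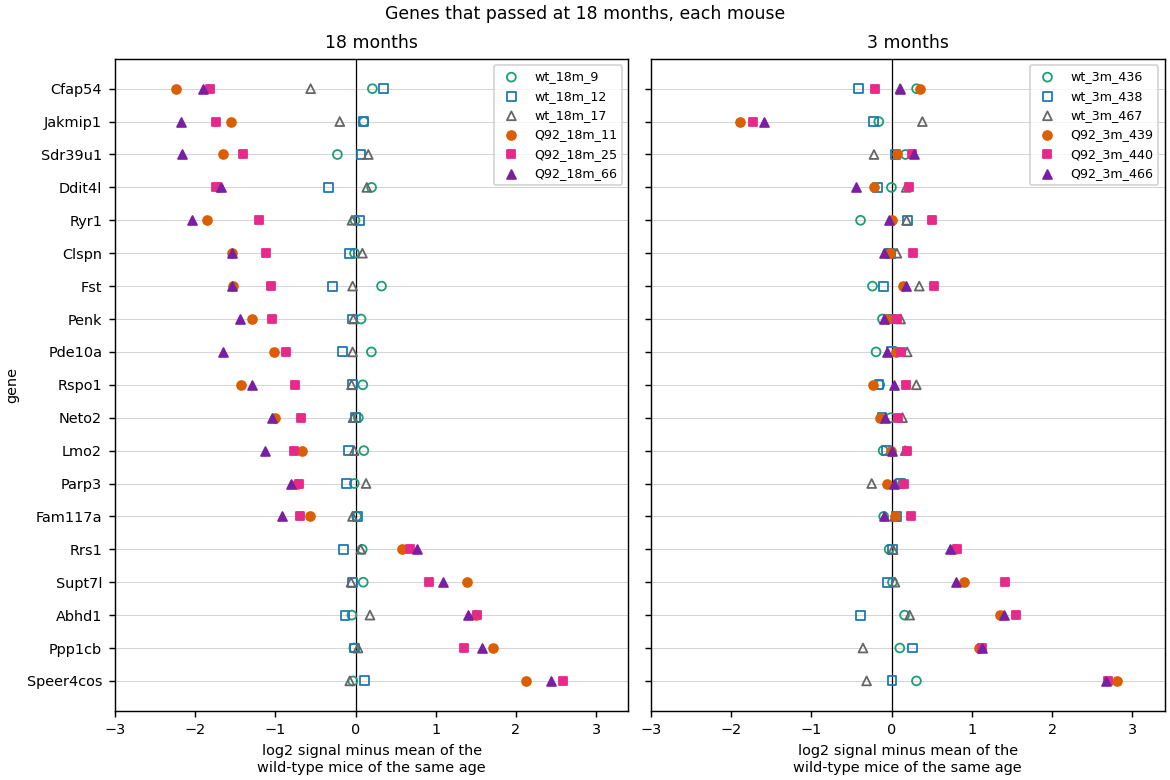
Each of the 19 genes that passed at 18 months, in each mouse, as log2 signal minus the mean of the wild-type mice of the same age, with 18 months on the left and 3 months on the right (open symbols wild type, filled symbols Q92, the probe set with the smallest p per gene). At 18 months the filled symbols lie apart from the open ones for every gene, while at 3 months they do so for Jakmip1, Rrs1, Supt7l, Abhd1, Ppp1cb and Speer4cos.

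Penk and 1 probe set of Pde10a fell in Q92 mice. Penk, which encodes the precursor of the enkephalins, read 11.69, 11.59 and 11.60 in the wild-type mice and 10.33, 10.59 and 10.19 in the Q92 mice. All 3 Q92 mice were low, with the lowest value in Q92_18m_66, and the difference was -1.26 (SE 0.11, adjusted p = 0.00113). Pde10a, a phosphodiesterase that breaks down cyclic AMP and cyclic GMP in striatal projection neurons, read 11.06, 10.70 and 10.83 against 9.85, 10.002 and 9.21 at the probe set that passed. That difference was -1.18 (SE 0.18, adjusted p = 0.0467). All 5 Pde10a probe sets had lower means in Q92 mice, from -1.29 to -0.46, and in 4 of them the groups did not overlap. The brightest was at -0.64 (adjusted p = 0.389). Of 33 measured genes of cyclic AMP signalling, none passed at its brightest probe set and the median difference was -0.02, against -0.0014 over all genes. The list was uneven. The groups did not overlap in 10 genes that were lower in Q92 mice (30.3%, against 7.51% of all genes) and in 3 that were higher (9.09%, against 6.5%). The adenylyl cyclase Adcy5 differed by -1.01 (adjusted p = 0.123) and the phosphodiesterase Pde1b by -0.75 (adjusted p = 0.137). The phosphodiesterases Pde7b and Pde1c differed by -0.58 (adjusted p = 0.196) and -0.54 (adjusted p = 0.262). Adcy5 and Pde1b are also on the lists of projection neuron markers. The median of the 29 cyclic AMP genes outside those lists was -0.0039.

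Ryr1, the ryanodine receptor that releases calcium from internal stores, fell in Q92 mice. It read 6.59, 6.65 and 6.55 in the wild-type mice and 4.75, 5.40 and 4.55 in the Q92 mice. The wild-type values lay within 0.10 of each other and the highest Q92 mouse was more than 1 below them, a difference of -1.70 (SE 0.22, adjusted p = 0.0144). Of 30 measured genes of calcium release, calmodulin kinases and phosphatases, Ryr1 was the 1 that passed. The median was -0.19, and the groups did not overlap in 11 genes that were lower (36.7%, against 7.51% of all genes) and 2 that were higher (6.67%). Ryr3, another ryanodine receptor, differed by -0.58 (adjusted p = 0.137), the inositol trisphosphate kinase Itpka by -0.65 (adjusted p = 0.275) and the kinase-like Camkv by -0.58 (adjusted p = 0.284). Camk2d, a subunit of calmodulin kinase II, lay in the other direction at 0.72 (adjusted p = 0.660). Ryr1, Itpka and Camk4 are also on the projection neuron lists. The median of the other 27 genes was -0.17.

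Neto2, an auxiliary subunit of kainate-type glutamate receptors, fell. It read 9.21, 9.17 and 9.14 in the wild-type mice and 8.16, 8.49 and 8.14 in the Q92 mice. The wild-type mice were nearly equal and the Q92 mice stood clearly below them, a difference of -0.91 (SE 0.11, adjusted p = 0.0109). Its other 2 probe sets differed by -0.88 and -0.66, and in all 3 the groups did not overlap. Among 32 measured genes of ionotropic glutamate receptors and their auxiliary subunits Neto2 was the 1 that passed, and the median was -0.09. The groups did not overlap in 4 lower genes (12.5%, against 7.51% of all genes) and 2 higher genes (6.25%, against 6.5%). The kainate receptor subunit Grik2 differed by -0.58 (adjusted p = 0.210) and the postsynaptic scaffold Shank3 by -0.61 (adjusted p = 0.194). Neto1, the relative of Neto2, differed by -0.23 with overlapping groups. Cnih3, an AMPA receptor auxiliary protein, was at 0.59 (adjusted p = 0.512). On the inhibitory side, none of 19 measured genes of GABA-A receptors and GABA handling passed. The groups did not overlap in 8 of them (42.1%, against 7.51% of all genes), all lower in Q92 mice, and the median was -0.17. The extrasynaptic receptor subunit Gabrd read 8.88, 8.58 and 8.85 against 8.18, 8.15 and 7.90 (-0.69, adjusted p = 0.128), and the GABA-synthesising enzyme Gad2 differed by -0.23 (adjusted p = 0.461).

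Clspn, the adaptor claspin that lets the kinase ATR activate the kinase CHK1 at stalled replication forks, fell in Q92 mice. It read 5.93, 5.87 and 6.03 in the wild-type mice and 4.41, 4.83 and 4.40 in the Q92 mice, with no overlap, a difference of -1.40 (SE 0.13, adjusted p = 0.00113). Its second, dimmer probe set differed by -0.09 (adjusted p = 0.921). Parp3, an ADP-ribosyltransferase of DNA break repair, was called by a probe set whose name marks probes that other transcripts may share. It read 4.32, 4.22 and 4.47 against 3.61, 3.63 and 3.54 (-0.75, SE 0.11, adjusted p = 0.0467). The brightest of its 3 probe sets differed by -0.68 (adjusted p = 0.225) and the last by -0.08. Of 23 measured genes of the replication checkpoint and DNA repair Clspn was the 1 that passed at its brightest probe set, 15 had higher means in Q92 mice and the median was 0.04. Chek1, which encodes CHK1, differed by -0.25 (adjusted p = 0.797), Atr by 0.26 (adjusted p = 0.694) and its partner Atrip by 0.38 (adjusted p = 0.492). Genes of mismatch repair and repeat stability, known to affect somatic growth of CAG repeats, held no gene that passed. Of 15 measured, 12 had higher means in Q92 mice, with a median of 0.07 and 4 genes without overlap (26.7%, against 6.5% of all genes). Pms2 differed by 0.33 (adjusted p = 0.519), Pms1 by 0.22 (adjusted p = 0.713) and Msh3 by -0.18 (adjusted p = 0.883).

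Fst and Rspo1, which encode secreted proteins, were lower in Q92 than in wild-type mice. Fst encodes follistatin, which binds and blocks activins. It read 5.85, 5.25 and 5.49 in the wild-type mice and 4.002, 4.48 and 3.99 in the Q92 mice (-1.38, SE 0.20, adjusted p = 0.0274). Its second probe set differed by -0.38 (adjusted p = 0.577). Among 38 measured genes of activin, BMP and TGF-beta signalling Fst was the 1 that passed, and the median was -0.14. The groups did not overlap in 11 lower genes (28.9%, against 7.51% of all genes) and 2 higher genes (5.26%). They include Id4, a transcriptional inhibitor induced by BMPs (-0.76, adjusted p = 0.0557), Inhba, which encodes an activin subunit (-0.42, adjusted p = 0.330), the activin-type receptor Acvr1c (-0.62, adjusted p = 0.522) and the ligand Bmp2 (-0.45, adjusted p = 0.209). In every Q92 mouse the mean of this list was below that of every wild-type mouse, at -0.17, -0.12 and -0.23 relative to the wild-type mean.

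Rspo1, a secreted protein that strengthens Wnt signals by sparing Frizzled receptors from degradation, read 5.99, 5.87 and 5.85 in the wild-type mice and 4.48, 5.15 and 4.62 in the Q92 mice. It was lower by 1.15 on the log2 scale (SE 0.18, adjusted p = 0.0467). The 40 measured Wnt genes did not share this, since 20 had higher and 20 lower means, the median was -0.00041 and the groups failed to overlap in 3 lower (7.5%, against 7.51% of all genes) and 2 higher genes (5%, against 6.5%). Fzd5, a Frizzled receptor, was among the lower ones (-0.31, adjusted p = 0.660).

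Ddit4l, a stress-induced inhibitor of the growth kinase complex mTORC1, fell at all 3 of its probe sets, the most complete agreement among the genes that passed. At the probe set with the smallest p it read 6.66, 6.13 and 6.61 in the wild-type mice and 4.76, 4.72 and 4.79 in the Q92 mice, which were closely alike. That difference was -1.71 (SE 0.17, adjusted p = 0.00170), and the others were -1.48 (adjusted p = 0.0225) and -1.22 (adjusted p = 0.0109). Of 23 measured genes of mTOR and energy sensing Ddit4l was the 1 that passed, with a median of -0.04 and equal numbers of lower and higher genes without overlap, 2 each (8.7%, against 7.51% of all genes lower and 6.5% higher). Its relative Ddit4 differed by -0.40 (adjusted p = 0.641) and the AMP kinase subunit Prkaa2 by 0.65 (adjusted p = 0.478).

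Lmo2, a LIM-only protein that bridges transcription factors, read 9.05, 8.87 and 8.93 in the wild-type mice and 8.28, 8.19 and 7.82 in the Q92 mice (-0.85, SE 0.13, adjusted p = 0.0402). Of 17 measured genes of LIM-domain cofactors and LIM homeobox factors it was the 1 that passed. The median was 0.00065, while the mean of the list was -0.08, -0.10 and -0.07 in the Q92 mice. Lmo1 differed by -0.36 (adjusted p = 0.569) and Lmo4 by 0.13 (adjusted p = 0.940).

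The remaining lower genes belong to none of the lists. Sdr39u1, a member of the short-chain dehydrogenase family, read 8.51, 8.81 and 8.90 in the wild-type mice and 7.09, 7.34 and 6.58 in the Q92 mice (-1.74, SE 0.18, adjusted p = 0.00170). Cfap54, a protein of the axoneme of motile cilia, read 7.22, 7.36 and 6.45 against 4.78, 5.20 and 5.12 (-1.98, SE 0.24, adjusted p = 0.0109). Fam117a read 6.84, 6.85 and 6.79 against 6.26, 6.13 and 5.91 (-0.73, SE 0.11, adjusted p = 0.0467). Jakmip1, a neuronal protein that binds microtubules and RNA, read 6.73, 6.72 and 6.43 against 5.07, 4.89 and 4.45 (-1.83, SE 0.18, adjusted p = 0.00170). At the probe sets that passed, no Q92 mouse reached the lowest wild-type mouse in any of these 4 genes.

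Promoter sequences of the lower genes were taken from RefSeq (assembly GRCm38.p6), which gave 14 windows of 300 bases for 10 of the 14 genes. Each window runs from 250 bases before to 50 bases after a transcript's start. The windows of Ddit4l, Clspn and Ryr1 are shown because these genes fell by more than 1 and represent 3 of the roles above, namely growth control, replication checkpoint and calcium release. They are chr3:137623422-137623721 on the plus strand for Ddit4l, chr4:126556730-126557029 on the plus strand for Clspn and chr7:29125102-29125401 on the minus strand for Ryr1. Each is printed 5′ to 3′ in the direction of transcription, and capitals mark the matches, on either strand, to the motifs spelled out in the next paragraph.
Ddit4l: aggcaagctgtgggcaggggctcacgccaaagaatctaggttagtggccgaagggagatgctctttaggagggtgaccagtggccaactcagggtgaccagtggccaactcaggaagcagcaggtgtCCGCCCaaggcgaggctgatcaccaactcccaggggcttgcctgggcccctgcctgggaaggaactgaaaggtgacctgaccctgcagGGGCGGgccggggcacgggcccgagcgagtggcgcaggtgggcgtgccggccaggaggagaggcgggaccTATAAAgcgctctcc
Clspn: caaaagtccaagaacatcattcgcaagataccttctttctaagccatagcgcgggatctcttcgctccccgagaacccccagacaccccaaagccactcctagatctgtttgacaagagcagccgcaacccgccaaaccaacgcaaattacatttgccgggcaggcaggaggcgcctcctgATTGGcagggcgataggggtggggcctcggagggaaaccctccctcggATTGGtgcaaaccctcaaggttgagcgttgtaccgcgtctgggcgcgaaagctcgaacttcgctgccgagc
Ryr1: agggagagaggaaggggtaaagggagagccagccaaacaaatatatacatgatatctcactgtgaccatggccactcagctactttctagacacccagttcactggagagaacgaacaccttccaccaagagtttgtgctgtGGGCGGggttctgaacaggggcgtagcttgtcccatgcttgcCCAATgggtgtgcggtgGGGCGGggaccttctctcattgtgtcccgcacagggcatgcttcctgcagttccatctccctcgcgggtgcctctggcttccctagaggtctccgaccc

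The motifs were the cyclic AMP response element TGACGTCA, the EGR motif GCGTGGGCG, the CCAAT box CCAAT, the GC box GGGCGG and the TATA box TATAAA. Both strands were searched. None of these motifs lies within another, though the EGR motif and the GC box can share bases. The 14 windows come from 10 genes, some with more than 1 window, and do not cover Penk, Cfap54, Fst or Lmo2. In these windows the cyclic AMP response element and the EGR motif were found 0 times. They occur in 1.79% and 0.612% of the 32851 promoter windows of the table. The CCAAT box was found in 6 of the 14 windows, against 37.4% of all windows, and the GC box also in 6, against 35.7%. The TATA box was found in 1 window, that of Ddit4l, against 13.6% of all windows. Clspn holds 2 CCAAT boxes, Ryr1 holds 1 CCAAT box and 2 GC boxes, and Ddit4l holds 2 GC boxes. These matches describe letters in a window, not binding.

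The 19 genes were also read in the young mice. The comparisons at 3 and at 18 months use different mice, and 5 probe sets passed at 3 months (0.0111%). Of the 14 lower genes, 13 lay outside chromosome 5. Their differences were -1.98 to -0.73 at 18 months and -0.15 to 0.28 at 3 months, with overlapping groups at 3 months in all 13. The other 6 genes, Rrs1 and the 5 on chromosome 5, had groups that did not overlap at 3 months either. Supt7l was the 1 of them that did not pass in limma at 3 months (adjusted p = 0.121). Over all probe sets the groups at 3 months failed to overlap in 4.35% with Q92 lower and in 2.49% with Q92 higher. In the test of the change with age, 0 of 45037 probe sets passed in limma, and 2335 had an unadjusted p under 0.05 (5.18%). Clspn, Sdr39u1 and Penk had the smallest adjusted p, 0.0598 each, with changes of -1.44, -1.94 and -1.22. Over the 13 genes the adjusted p of the change ran from 0.0598 to 0.636, and 3 were under 0.1, so no change with age passed for any of them. For the 6 genes whose groups did not overlap at 3 months the change with age ran from -0.34 to 0.43 (adjusted p from 0.946 to 0.992). Other settings gave 0 to 3 calls of this change, and those with 2 or 3 are given with the settings.

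The 13 genes whose groups overlapped at 3 months differed in where their old mice lay beside the 6 young mice. In 9 of them all 3 Q92 mice at 18 months lay below all 6 mice at 3 months. These were Penk, Pde10a, Ryr1, Neto2, Clspn, Ddit4l, Fst, Lmo2 and Sdr39u1. Clspn, for example, ranged from 5.97 to 6.33 in the young mice, from 5.87 to 6.03 in old wild-type and from 4.40 to 4.83 in old Q92 mice. In the other 4 genes all 3 old wild-type mice lay above all 6 young mice instead. Cfap54 ranged from 4.62 to 5.39 in the young mice, from 6.45 to 7.36 in old wild-type mice and from 4.78 to 5.20 in old Q92 mice, within the young range. Parp3 ranged from 3.09 to 3.49, from 4.22 to 4.47 and from 3.54 to 3.63 in the same order. Rspo1 ranged from 4.75 to 5.29, from 5.85 to 5.99 and from 4.48 to 5.15. Fam117a ranged from 6.24 to 6.57, from 6.79 to 6.85 and from 5.91 to 6.26. In these 4 genes the old wild-type mice thus lay above the young range, while the old Q92 mice differed by gene. They lay within that range for Cfap54 and just above it for Parp3. For Rspo1 and Fam117a, 2 of the 3 old Q92 mice lay below all 6 young mice. The difference between the 9 and the 4 genes was not tested.

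The 5 genes that rose were led by Speer4cos, a transcript named for its place opposite a gene of the Speer family, whose near-identical copies make its assignment uncertain. It read 3.56, 3.70 and 3.52 in the wild-type mice and 5.71, 6.18 and 6.03 in the Q92 mice, so that the groups lay far apart. The difference was 2.38 (SE 0.15, adjusted p = 6.18e-05). Ppp1cb, a catalytic subunit of protein phosphatase 1, read 4.84, 4.85 and 4.89 against 6.57, 6.21 and 6.43 at the probe set that passed (1.54, SE 0.14, adjusted p = 0.00113). Abhd1, a protein with a hydrolase fold, read 4.91, 4.82 and 5.14 against 6.46, 6.47 and 6.36 (1.47, SE 0.15, adjusted p = 0.00170). At these probe sets each of the genes was more than 1 higher in every Q92 mouse than in any wild-type mouse. Supt7l, a subunit of a histone-acetylating coactivator complex, read 3.39, 3.25 and 3.23 against 4.68, 4.20 and 4.38 (1.13, SE 0.15, adjusted p = 0.0206). Rrs1, a ribosome assembly factor, read 8.00, 7.77 and 7.99 against 8.50, 8.59 and 8.69 (0.67, SE 0.09, adjusted p = 0.0191). Both groups were apart at these probe sets too. Of 35 measured ribosome biogenesis genes Rrs1 was the 1 that passed, with a median of 0.04 and 5 higher genes without overlap (14.3%, against 6.5% of all genes).

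Of the 5 genes that rose, Speer4cos, Ppp1cb, Abhd1 and Supt7l lie on chromosome 5 and Rrs1 lies on chromosome 1. Jakmip1, which fell, also lies on chromosome 5, the chromosome of Htt, which holds the knock-in. Chromosome 5 thus holds 5 of the 19 genes that passed (26.3%), and 1122 of the 18193 measured genes (6.17%). The sources used here do not give the strain of the DNA around the knock-in, and its part in these differences was not tested.

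Where a gene had several probe sets, they did not always share its difference. Ddit4l, Neto2, Jakmip1, Pde10a, Parp3, Cfap54, Clspn, Fst, Ryr1 and Rrs1 had all their probe sets in one direction, though not of one size. Ppp1cb, Supt7l and Sdr39u1 had probe sets in both directions. Jakmip1 differed by -1.83 at the probe set that passed, -0.92 at the next and -0.34 and -0.32 at the others, the first of these being the brightest. The second probe set of Sdr39u1 differed by 0.05 (adjusted p = 0.969), though it was nearly as bright as the one that passed (mean 8.39 against 8.47). The second probe set of Cfap54, which was dim (mean 2.90), differed by -0.16. Ryr1 differed by -0.28 at its second probe set. For Supt7l the brightest probe set differed by -0.15 and the dimmest by -0.10, against 1.13 at the one that passed. For Ppp1cb the brightest probe set lay in the opposite direction, at -0.63 (adjusted p = 0.130), with groups that did not overlap. The others were at -0.23 and 0.03. The rise of Ppp1cb and Supt7l thus holds for 1 probe set each, as does the fall of Sdr39u1. Rrs1 differed by 0.67 and 0.42 at its 2 probe sets.

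**Figure D2:**
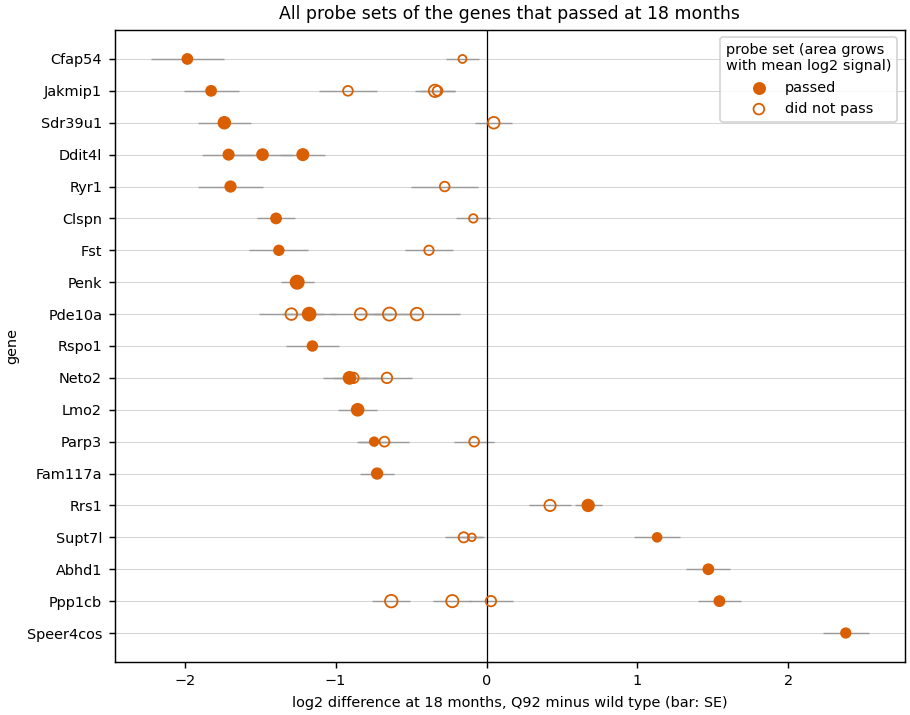
All probe sets of the 19 genes that passed, 1 row a gene, as the log2 difference at 18 months (Q92 minus wild type) with its SE as a bar, filled where the probe set passed, larger where its mean signal is higher. All probe sets of Ddit4l are filled, while those of Ppp1cb, Supt7l, Sdr39u1 and Cfap54 lie far apart within the row.

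The 3 Q92 mice did not deviate equally. Mouse Q92_18m_66 held the lowest value in 13 of the 17 lower probe sets, Q92_18m_11 in 3 and Q92_18m_25 in 1. Among the 7 higher probe sets the highest value fell to these mice in 3, 2 and 2. Relative to the wild-type mean, 281 probe sets were lower by over 1 in Q92_18m_66 and 94 were higher, while Q92_18m_11 had 152 lower and 280 higher and Q92_18m_25 had 145 lower and 195 higher. Wild-type mice, each set against the other 2, had 69 to 153 lower and 53 to 175 higher. Mouse Q92_18m_66 also had the lowest mean correlation with its own group (0.989).

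As a check of how far the genes hold in a mouse that did not choose them, each mouse was left out of the fit in turn. The probe sets then called were read in the left-out mouse, by whether it lay on its own group's side of the midpoint. Without Q92_18m_11, 25 passed and 19 of these placed it on the Q92 side. For Q92_18m_25 this was 20 of 24 and for Q92_18m_66 it was 14 of 21. For the wild-type mice it was 8 of 9 for wt_18m_9, 16 of 20 for wt_18m_12 and 15 of 22 for wt_18m_17. Of the 24 probe sets called with all mice, 8 still passed without wt_18m_9, 13 without Q92_18m_66, 14 without wt_18m_12 or wt_18m_17 and 17 without Q92_18m_11 or Q92_18m_25. Penk, Clspn, Sdr39u1, Jakmip1, Abhd1, Ppp1cb and Speer4cos passed without any 1 mouse, as did 1 of the 3 Ddit4l probe sets.

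Below the threshold, the 15 genes with the smallest p that were lower in Q92 mice, outside the projection neuron lists, had adjusted p from 0.0557 to 0.0879. None of them passed. Several encode receptors and their regulators. Rgs14, which speeds G protein inactivation, read 9.15, 8.90 and 8.88 in the wild-type mice and 8.16, 8.16 and 7.75 in the Q92 mice (-0.96, adjusted p = 0.0557). The serotonin receptor Htr1b read 8.81, 8.56 and 8.70 against 7.93, 7.97 and 7.45 (-0.91, adjusted p = 0.0577). The orphan receptor Gpr83 differed by -0.89 (adjusted p = 0.0617) and the interleukin receptor subunit Il17rc by -1.07 (adjusted p = 0.0648). Non-overlapping groups were part of the rule that chose these genes. Id4 read 11.13, 11.21 and 10.84 against 10.17, 10.37 and 10.38 (-0.76, adjusted p = 0.0557). The kinase Vrk1 differed by -0.85 (adjusted p = 0.0557), the deadenylase subunit Pan2 by -0.52 (adjusted p = 0.0577) and the sialyltransferase St8sia3 by -0.93 (adjusted p = 0.0648). The others were Tpst1 (-0.47), Phex (-1.17), Serpinb1b (-1.04), the BH3-only gene Hrk (-0.63), the lipid transfer gene Osbpl8 (-0.65), Gm6556 (-1.22) and the cyclin Ccno (-1.11). With 1 probe set a gene, which tests fewer features, all 15 passed, as did Kcnj9.

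Genes on the higher side lay further from the threshold. Kcnj9, a subunit of G protein-gated potassium channels, came closest. It read 6.23, 5.62 and 6.28 in the wild-type mice and 8.21, 7.98 and 8.02 in the Q92 mice, clearly apart. The difference was 2.03 (SE 0.34, adjusted p = 0.0645). At 3 months Kcnj9 ranged from 5.77 to 7.37 in wild-type and from 5.81 to 6.58 in Q92 mice. Its other probe sets differed by 0.97, 0.19 and 0.09. Kcnj9 is also on the cortical neuron list, whose mean was high in Q92_18m_11 and Q92_18m_25 but not in Q92_18m_66, and Kcnj9 was as high in that mouse as in the others. With the cortical and thalamic lists as covariates its difference was 1.45 (adjusted p = 0.130). The cortical list mean includes Kcnj9 itself, so a smaller difference is partly built into that setting. The next were Doc2a, a calcium sensor of vesicle release (0.68, adjusted p = 0.130), and the transcription factor subunit Taf4b (0.47, adjusted p = 0.130). Rnf217 differed by 0.46, Sytl2 by 0.51, Faah, which degrades the cannabinoid anandamide, by 0.58, and Mllt11 by 0.39. Stmn2, a regulator of neuronal microtubules, read 10.06, 10.05 and 9.98 against 10.61, 10.53 and 10.71 (0.58, adjusted p = 0.180). The noncoding RNA Rmst differed by 1.60 (adjusted p = 0.172) with a wide wild-type spread of 3.43, 3.73 and 4.93, and it passed without mouse wt_18m_17 (adjusted p = 0.0398). The last ones were Onecut1 (0.44), Sfmbt2 (0.77), Sh3yl1 (0.55), Dis3 (0.35), Ccdc32 (0.39) and 2700038G22Rik (0.46).

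**Figure D3:**
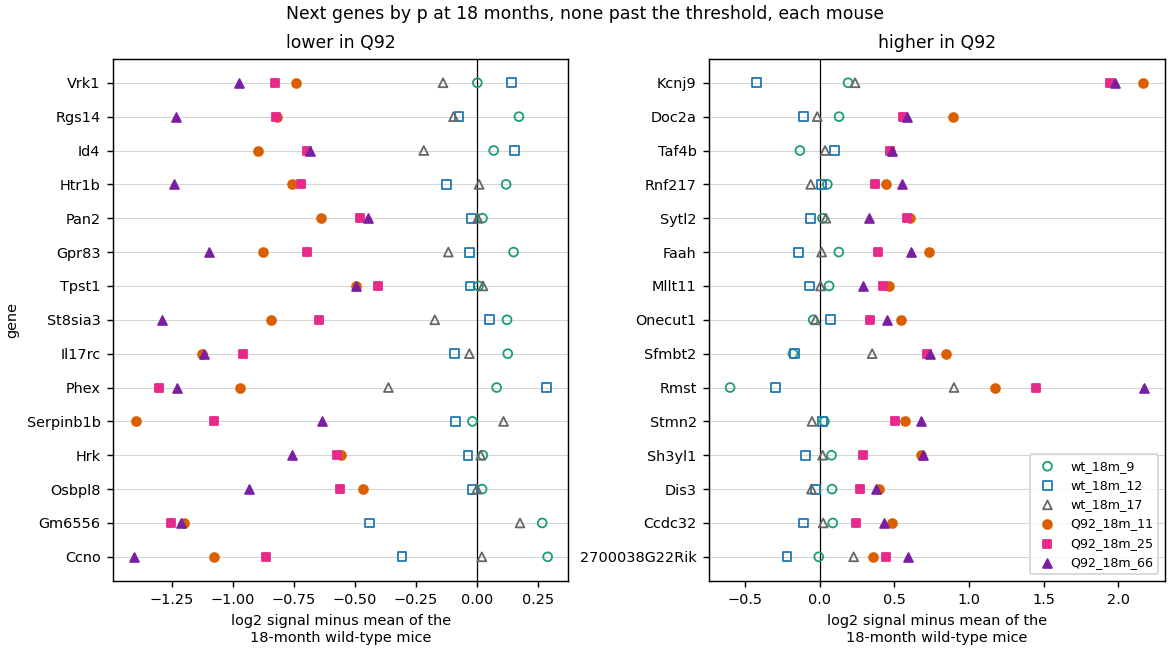
The 15 genes with the smallest p below (left) and above (right) wild type among genes that did not pass, whose groups did not overlap and that are outside the projection neuron lists, in each mouse at 18 months, as log2 signal minus the mean of the wild-type mice (open symbols wild type, filled symbols Q92). The genes were chosen for groups that do not overlap. Kcnj9 stands about 2 above wild type in all 3 Q92 mice.

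Size gave another view than the test. Mean differences over 1 with groups that did not overlap were found in 42 named probe sets of 38 genes that were lower in Q92 mice and in 31 named probe sets of 30 genes that were higher. Counting unnamed ones, these were 0.115% and 0.0866% of all probe sets, against 0.00444% and 0.0266% at 3 months. Of the 38 lower genes 11 belong to the projection neuron lists, and of the 30 higher genes 0 do. Those lists hold only 58 of the 18193 measured genes, so 0 of 30 says little by itself. The lower genes outside those lists include Jag1, a ligand of Notch receptors (-1.12, adjusted p = 0.206), Gpx6, a glutathione peroxidase (-1.75, adjusted p = 0.398), and Egr2, a transcription factor induced by activity (-1.01, adjusted p = 0.391). None of those 3 passed.

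The higher and the lower sets differed in which probe sets they held. Of the 31 higher probe sets 22 (71%) were not the brightest of their gene, and the brightest probe sets of those 22 genes had a median difference of 0.0019. Of the 42 lower ones 12 (28.6%) were not the brightest, and the brightest of those genes had a median of -0.77. The 22 included probe sets of Crebbp, a histone acetyltransferase, Map1b, a microtubule protein, Kif5c, an axonal motor, and Ddx6, an RNA helicase. For Crebbp the higher probe set read 6.19, 6.48 and 6.02 in the wild-type mice and 7.75, 7.67 and 6.78 in the Q92 mice, a difference of 1.18 (adjusted p = 0.512). The brightest Crebbp probe set differed by -0.02. Only Ppp1cb and Supt7l of the 22 passed, and the other 20 had adjusted p from 0.265 to 0.755.

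These 22 probe sets also varied among young mice of either genotype. Relative to the old wild-type mice their mean was 1.36, 1.15 and 0.88 in the old Q92 mice. At 3 months it was 0.82, 1.23 and -0.47 in the wild-type mice and 0.88, 0.55 and 1.36 in the Q92 mice. The 3 old wild-type mice and young mouse wt_3m_467 were low and all other mice were high. Those 4 mice also had the 4 lowest readings of the 18S control, from 5.28 to 5.75. The part of the 18S control in these values was not tested. The 30 lower probe sets that were the brightest of their gene behaved otherwise, with means of -1.19, -1.02 and -1.58 in the old Q92 mice and -0.34 to 0.0029 in all 6 young mice.

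**Figure D4:**
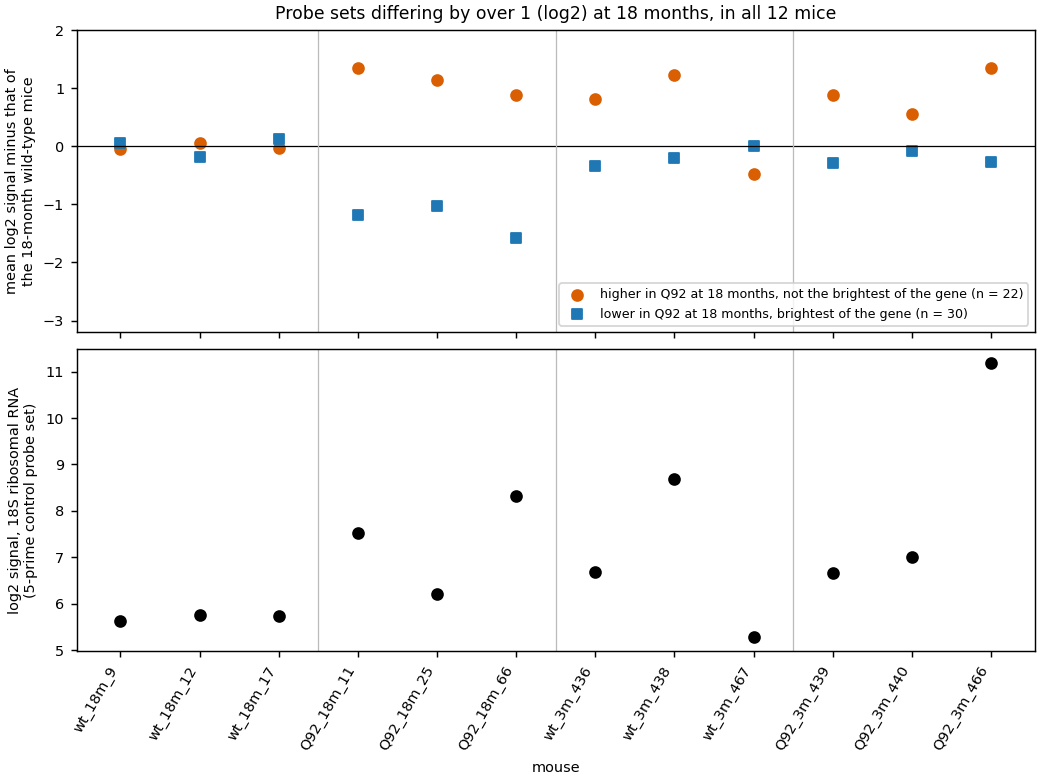
Upper panel: mean log2 signal, relative to the 18-month wild-type mice, of the 22 probe sets higher by over 1 in old Q92 mice that are not the brightest of their gene and of the 30 lower ones that are, in all 12 mice. Lower panel: log2 signal of the 5-prime 18S control. The higher set reaches 1.23 and 1.36 in young mice of both genotypes, whereas the lower set stays between -0.34 and 0.0029 in them.

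The lists of functions showed few shared differences. Proteasome subunits had higher means in Q92 mice in 30 of 31 genes, with a median of 0.13, against -0.0014 over all genes, and none passed. The groups did not overlap in 9 of them (29%, against 6.5% of all genes), among them Psmd1 (0.27, adjusted p = 0.569) and Psmb7 (0.25, adjusted p = 0.554). The mean of the list relative to wild type was 0.08 and 0.06 in Q92_18m_11 and Q92_18m_25 and 0.26 in Q92_18m_66, while wild-type mice ranged from -0.06 to 0.06. The lower 2 Q92 mice thus lay at the edge of the wild-type range, and the median was 0.07 to 0.17 when single mice were left out. Clustered protocadherins, adhesion proteins that give neurons individual surface codes, had 5 of 22 genes higher without overlap (22.7%) and a median of 0.08. Pcdhb21 read 5.99, 5.92 and 6.25 against 7.35, 6.93 and 6.62 (0.91, adjusted p = 0.216), and Pcdhb16 differed by 0.91 (adjusted p = 0.468) and Pcdhb19 by 0.51 (adjusted p = 0.245). Near-identical members of this cluster can share probes, which makes the assignment to single genes uncertain.

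Several signalling lists had more lower genes without overlap than the background of 7.51%, with medians near zero. Voltage-gated calcium and sodium channels had 5 of 23 (21.7%), among them Cacnb2 (-0.51, adjusted p = 0.137). Phosphoinositide and diacylglycerol signalling had 6 of 25 (24%), among them the diacylglycerol kinase Dgki (-0.73, adjusted p = 0.273). Retinoid and nuclear receptors had 6 of 35 (17.1%), among them Rxrg (-0.90, adjusted p = 0.137) and Rarb (-0.64, adjusted p = 0.319), both also on the projection neuron lists. Their medians were -0.03, -0.06 and -0.06. Mouse Q92_18m_66 was lowest in all 3 lists. Lists close to all genes were oxidative phosphorylation (median 0.04), the tricarboxylic acid cycle (0.01), cytosolic ribosomal proteins (0.0042), chromatin regulators (0.02), pre-mRNA splicing factors (-0.01), synaptic adhesion and axon guidance (0.03) and synaptic vesicle release (0.05). Insulin-like growth factor signalling (-0.07), potassium channels (-0.07) and the MAP kinase cascade (-0.06) had slightly negative medians. Homeobox and developmental factors (0.0063), aminoacyl-tRNA synthetases and translation initiation (0.03), ubiquitin conjugation (0.05), axonal transport and cytoskeleton (0.06) and glycolysis (0.07) had slightly positive ones. Higher without overlap were 5 of 26 glycolysis genes (19.2%), 5 of 30 ubiquitin genes (16.7%) and 4 of 29 aminoacyl-tRNA and initiation genes (13.8%). So were 5 of 38 axonal transport genes (13.2%) and 5 of 40 homeobox genes (12.5%), against 6.5% of all genes. No gene of these 15 lists passed at its brightest probe set.

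Immune and activity-related lists varied by mouse more than by genotype. None of 20 measured genes of MHC class I and the interferon response passed, and the groups overlapped in all 20. The list mean relative to wild type was -0.77, -0.09 and 0.86 in the wild-type mice and -0.70, -1.09 and 0.12 in the Q92 mice. Oasl2, an interferon-induced gene, read 4.39, 6.16 and 7.70 against 4.35, 3.71 and 5.69. The list's median of -0.46 was -0.11 to -0.87 when single mice were left out. Of 22 measured activity-regulated immediate early genes none passed, 16 had lower means in Q92 mice and the median was -0.16. The groups did not overlap in 3 of them, all lower (13.6%, against 7.51% of all genes). The list mean was -0.19, 0.09 and -0.67 in the Q92 mice, so that Q92_18m_25 lay with the wild-type mice (-0.11 to 0.17).

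**Figure D5:**
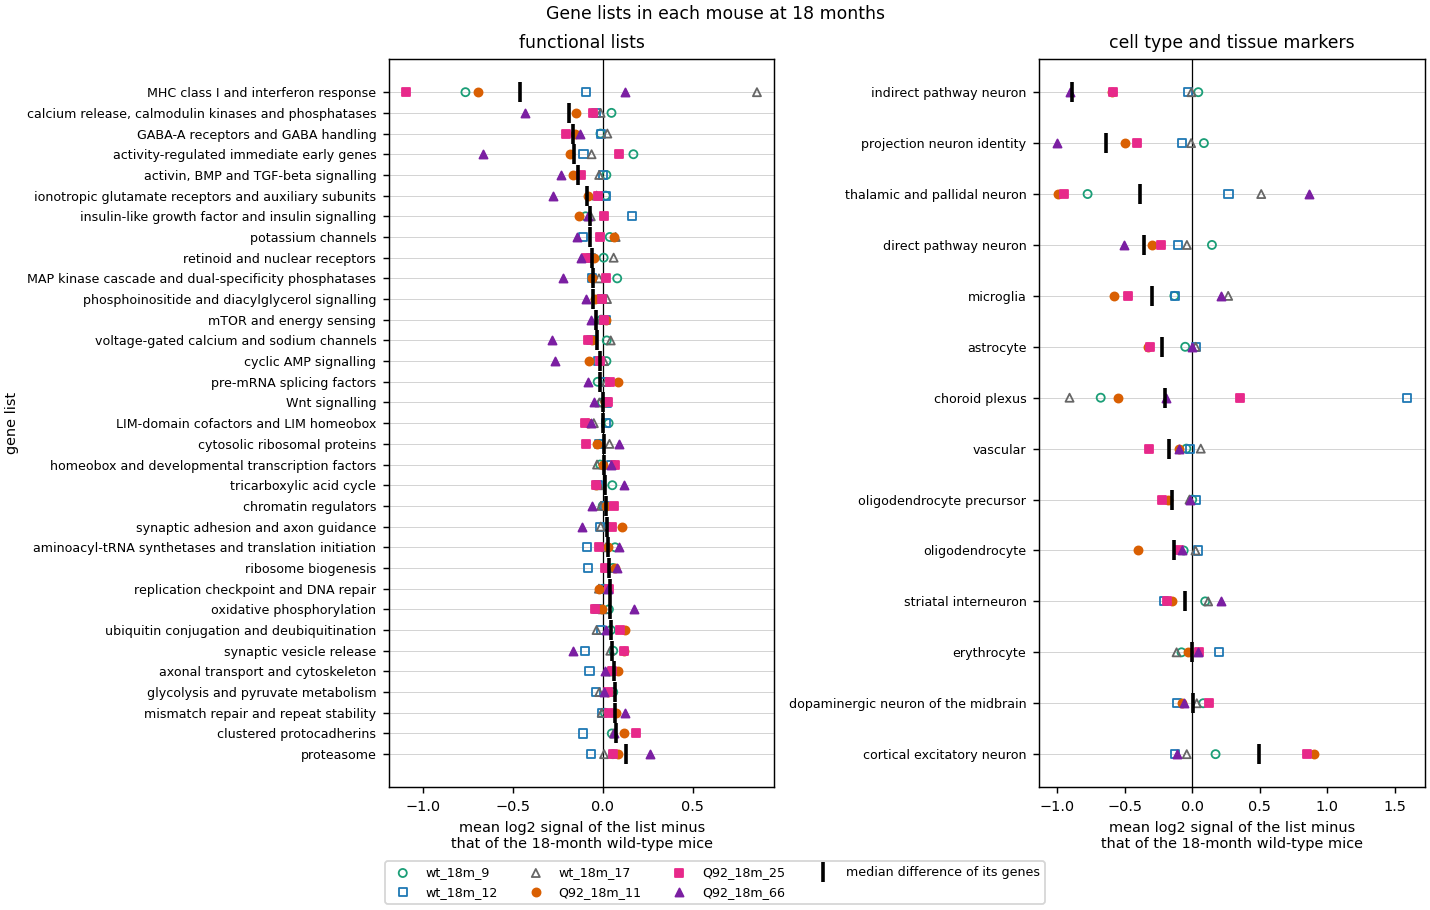
Mean log2 signal of each gene list in each mouse at 18 months relative to the wild-type mean, for functional lists (left) and markers of cell types and neighbouring tissue (right), with the median difference of the list's genes as a black bar. The 3 projection neuron lists lie to the left in all 3 Q92 mice, while the MHC, thalamic, choroid plexus and cortical lists spread by mouse.

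Markers of projection neurons were lower in all 3 Q92 mice, most in Q92_18m_66. The mean of the 42 measured identity genes was -0.50, -0.41 and -1.01 in Q92_18m_11, Q92_18m_25 and Q92_18m_66, against -0.08 to 0.09 in the wild-type mice. The 6 indirect pathway genes averaged -0.60, -0.59 and -0.91 and the 10 direct pathway genes -0.30, -0.23 and -0.51. The log2 of their summed signal ran from 15.68 to 15.83 in wild-type and from 14.74 to 15.33 in Q92 mice for identity genes, from 12.19 to 12.31 and from 10.98 to 11.36 for the indirect pathway, and from 12.59 to 12.72 and from 12.05 to 12.45 for the direct pathway. Ryr1 and Penk were the members that passed at their brightest probe set.

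Markers of tissue that borders the striatum differed between mice of 1 genotype. Cortical excitatory neuron markers (14 of 15 with higher means, none passed) averaged 0.90 and 0.85 in Q92_18m_11 and Q92_18m_25 and -0.12 in Q92_18m_66, against -0.13 to 0.17 in wild-type mice. Their summed signal ran from 11.40 to 11.85 in wild-type and from 11.68 to 12.35 in Q92 mice. Tbr1, a transcription factor that defines deep cortical neurons, read 5.07, 4.10 and 4.37 against 6.57, 6.15 and 3.76. Thalamic and pallidal markers ran the other way, averaging -0.995, -0.95 and 0.87 in the same Q92 mice and -0.78, 0.27 and 0.51 in the wild-type mice, with a summed signal from 10.70 to 12.02 and from 10.48 to 12.52. Slc17a6, the vesicular glutamate transporter of thalamic neurons, read 6.48, 8.24 and 8.62 against 5.75, 5.25 and 9.09. Choroid plexus markers averaged -0.91 to 1.59 in wild-type and -0.55 to 0.35 in Q92 mice, with Ttr from 8.63 to 13.76 and from 11.74 to 13.21. Signals of this array have no true zero, so none of these markers could be read as absent.

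With the means of the cortical and the thalamic lists as covariates 59 probe sets passed, 51 lower and 8 higher, among them 19 of the 24. Penk then differed by -1.25 (adjusted p = 0.00343) and Clspn by -1.36 (adjusted p = 0.0159).

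Glial and vascular markers had lower means in most genes, and none passed. Astrocyte markers were lower in 16 of 17 (median -0.23, summed signal from 14.10 to 14.17 in wild-type and from 13.91 to 14.07 in Q92 mice). Microglial markers were lower in 16 of 18 (median -0.30, from 12.33 to 12.90 and from 11.93 to 12.79). Vascular markers were lower in 17 of 17 (median -0.17, from 11.89 to 12.03 and from 11.66 to 11.91). Oligodendrocyte markers were lower in 12 of 15 (median -0.14, from 14.53 to 14.64 and from 14.30 to 14.56), and precursor markers in 9 of 10 (median -0.15, from 11.76 to 11.84 and from 11.54 to 11.90). In astrocytes and microglia the low values came from Q92_18m_11 and Q92_18m_25, at -0.33 and -0.32 and at -0.58 and -0.48, while Q92_18m_66 stood at -0.01 and 0.21. Interneuron markers had a median of -0.06, erythrocyte markers one of -0.000078 and those of midbrain dopamine neurons one of 0.01. The part of the cell types in this paragraph in the differences of single genes was not tested. Among the lists, only the cortical and thalamic ones served as covariates.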

How the data were processed

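Striatal RNA of 12 mice was read on Affymetrix arrays, grouped by the labels' genotype and age into 4 groups of 3. The deposited values are log2 signals. RMA and the affy package are named, without versions, in the submitters' processing notes. The method evens out overall brightness, so each difference stands relative to the other genes. The sources used here do not say whether the 12 arrays were normalised together. The deposited log2 values were used unchanged. A model with 1 mean for each of the 4 groups was fitted with limma 3.58.1 in R 4.3.3 (8 residual and 4.5 prior degrees of freedom), and p-values were adjusted by Benjamini-Hochberg over 45037 probe sets, with 64 control probe sets left out. The number of arrays limits the precision (median SE 0.12 at 18 months). The fit was tested on simulated data. There, 90% of 100 log2 changes of 1 and 100% of 100 changes of 2 passed in this comparison, with 7 false calls. The simulated noise was drawn separately for each value, without shifts that a mouse shares across probe sets. These rates therefore need not hold for the real arrays.

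Gene names came from the platform annotation. Of the probe sets, 34945 had 1 gene name and 932 several. RefSeq (GRCm38.p6) held the gene of 34741. Named were all genes that passed, with every probe set, the 15 lower and 15 higher genes of smallest p that did not pass, did not overlap between groups and were in none of the 3 projection neuron lists, up to 4 members with the largest difference of each list described, and Htt. Further list members (such as Chek1 and Tbr1), Jag1, Gpx6, Egr2, Crebbp, Map1b, Kif5c and Ddx6 were chosen after their values were seen. The 47 lists hold 1248 genes, 1126 of them measured. The comparison, members and lists were chosen with earlier results of these data known, and lists were described by counts and medians, with no set test. Alternatives were another normalisation or centring, a filter on dim probe sets, an intensity trend, array weights, sex, age in days, the 18S control or list means as terms, fewer arrays, and other probe set choices.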

Additional observations from a re-analysis of the deposited data

Results flagged for a closer look

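The 5-prime 18S ribosomal RNA control probe set, which lies outside the tested measurements, was higher by 1.64 (log2) in Q92 than in wild-type mice at 18 months, with no overlap between the groups. It was singled out because every Q92 mouse read above every wild-type mouse and the difference was over 1. The middle and 3-prime 18S probe sets differed by 0.60 and 0.63, with overlapping groups.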

How the results depend on the processing

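Of 416 settings run for single called probe sets, 278 kept the call, 138 lost it and 0 reversed the direction. The call was lost in 13 of 16 settings for Parp3, 13 of 18 for Rspo1, 11 of 18 for Fam117a, 10 of 18 for Lmo2 and 10 of 17 for Pde10a. It was lost in 1 of 18 for Penk, Clspn and Abhd1 and in 0 of 18 for Speer4cos. With the 18S covariate the calls of Ryr1, Neto2, Fst, Cfap54 and Rrs1 were among those lost. For Q92 against wild type at 18 months the count of 24 probe sets became 45 with an intensity trend and robust prior, 56 with array weights, 11 with only the 6 arrays of that age, 37 with 1 probe set per gene, 4 with a block for age in days (1 of them among the 24), 8 with the 18S covariate and 59 with cortical and thalamic list means as covariates. Leaving out single mice gave 9 to 25. Quantile normalisation (33), a common median (19), the filter on dim probe sets (20), sex (22) and gene means (29) stayed within 1.5 times. For the change with age, where 0 probe sets passed in limma, the trend gave 3, array weights 2, 1 probe set per gene 3, gene means 2 and the age block 1, and leaving out single mice gave 0 to 3. This change could not be fitted with only 6 arrays. For Q92 against wild type at 3 months the count of 5 became 1 with only 6 arrays, 3 with 1 probe set per gene, 2 with the age block and 3 with the 18S covariate, and leaving out single mice gave 1 to 4. The cause of these shifts was not tested, except that 1 probe set per gene tests fewer features and 6 arrays leave fewer degrees of freedom. The age block rests on mice of 596 days, since no other age in days at 18 months is shared between genotypes.

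Penk, Clspn and Sdr39u1 were the genes that passed for the change with age under the trend, with 1 probe set per gene and without Q92_18m_25. With array weights and gene means they were Penk and Sdr39u1. Without wt_18m_17 they were Norad and Mir1931, without Q92_18m_11 it was Cttnbp2, and with the age block it was an unnamed probe set. The median of all probe sets was 0.0055, and it was 0.00082 after quantile normalisation and -0.0059 with a common median. Depth has no counterpart on arrays, and precision was not tested against signal. No paired analysis was possible because the animals' numbers in the labels are not shared between the groups.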
